A study of Mus musculus with 24 samples.

Results

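C2C12 is an established line of mouse skeletal muscle myoblasts that stop dividing, fuse and form myotubes once growth medium is replaced by a differentiating medium. The comparison described here sets 3 arrays labelled day 2, from cells 2 days after addition of differentiating medium, against 3 arrays labelled day 0. They are 6 of the 24 Affymetrix MG_U74Av2 arrays of a time course, which has 3 arrays on each of 8 days (-2, -1, 0, 2, 4, 6, 8 and 10). All arrays hold total RNA of the same line in bulk, and no genotype or further agent is named in the labels. The labels do not say whether day 0 RNA was taken just before or just after the medium was added, or whether the 3 arrays of a day come from separate cultures, so the p-values cover the spread among these arrays and no more. All 12422 non-control probe sets were considered, and the gene families described are those of transporters, enzymes, receptors, secreted proteins, transcription factors and splicing factors, outside the sarcomere, the Id proteins and the cell cycle. Of 8251 genes with a probe set naming that gene alone, 6283 passed the filter on dim values and were tested, and 1683 of these belong to 41 families.

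Media used to differentiate myoblasts usually hold less serum, and so fewer mitogens and lipids, than growth medium. Cells make cholesterol from acetyl units along the mevalonate and sterol branches, and the enzymes of that route are transcribed under the sterol-sensing SREBP factors. Differentiating myoblasts also enlarge their membranes, build an internal calcium store around calcium-pumping ATPases, change the proteins of their surface and matrix, and switch to muscle forms of several enzymes and splicing regulators.

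On day 2 the enzymes of cholesterol synthesis were higher together, most glutathione transferases and the metallothioneins Mt1 and Mt2 were lower, secreted proteins were more often lower than higher, and ion-pumping ATPases were mostly higher where they changed. Of the 6283 genes tested by limma across all 24 arrays, 1462 passed an adjusted p of 0.05, which is 23.3% of the genes. Of these, 761 rose (12.1%) and 701 fell (11.2%), and the median change over all genes was 0.00. A change is the day 2 mean minus the day 0 mean of log2 intensity, given ± its standard error, so a change of 1 is 2-fold. Over probe sets, 951 of 8484 rose (11.2%) and 879 fell (10.4%). At least 2-fold, 271 genes rose and 198 fell, and at least 4-fold, 94 rose and 36 fell. The arrays of the 2 days did not overlap for 2510 genes (39.9%). In bulk RNA a change in the share of cells of one kind and a change in RNA per cell cannot be told apart.

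The arrays of 1 day resembled each other more than those of the other day. Over tested probe sets the correlation was 0.970 to 0.974 between day 2 arrays, 0.962 to 0.966 between day 0 arrays and 0.912 to 0.925 between the days. The ratio of 3′ to 5′ Gapdh signal, a measure of RNA integrity, was 0.805, 0.797 and 0.859 on the day 2 arrays, against 0.811, 0.856 and 0.801 on the day 0 arrays. Of 4 markers fixed for skeletal myoblasts and myotubes, the myogenic factor Myod1 fell by 1.04, and Myf5 (-0.19), Myog (0.44) and the intermediate filament gene Des (0.02) did not pass the test. Their summed intensity was 40972 to 44699 on day 2, against 44333 to 58846 on day 0. Myod1 and Myog had the highest means, at 13.67 and 14.67 on day 2, against 14.71 and 14.24 on day 0, and Myf5 had 8.62 on day 2, against 8.81 on day 0. Of 6 markers of dividing cells, 5 rose, with a summed intensity of 15994 to 16321 on day 2, against 9448 to 11371 on day 0. Of 4 tested adipocyte markers, 3 fell, with a summed intensity of 2766 to 3402 on day 2, against 8450 to 8957 on day 0. The macrophage markers Ptprc and Lyz2 and the endothelial markers Cdh5 and Tek lay at the floor of the intensity scale (6.27) on all 6 arrays. The other tested markers of these cells lay above it and did not pass the test, with means of 7.53 on day 2 and 8.33 on day 0 for Cd68, 7.42 and 7.30 for Csf1r, 7.40 and 8.09 for Pecam1, and 7.64 and 7.43 for Kdr. Summed over its list, each of these cell types had 386 to 645 (macrophage) and 479 to 667 (endothelial) on day 2, against 586 to 704 and 392 to 1132 on day 0. None of 4 tested smooth muscle markers passed the test. Of 3 tested neural markers Tubb3 rose by 0.68 (adjusted p = 0.000292), and the list summed to 12996 to 16881 on day 2, against 7949 to 10627 on day 0. The part of the dividing-cell, adipocyte and neural markers in the results below was not tested.

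The 6 groups of families differed in how often their genes changed. Secreted proteins had the highest share called, 36.2% of 240 tested genes, with 22 that rose and 65 that fell and a median change of -0.19. Its families are symbol patterns, and some members are not secreted, such as the transcription factor Lef1 and the membrane metalloproteinase Adam8. Enzymes followed with 30.8% of 545 genes, 82 that rose and 86 that fell. Among transcription factors 25 rose and 43 fell of 259 (26.3%). Among transporters 38 rose and 18 fell of 232 (24.1%), and 17 of the rises but only 1 of the falls were 2-fold or more. Receptors had 21 rises and 31 falls among 262 genes (19.8%), and splicing and RNA-binding proteins had 13 rises and 20 falls among 148 (22.3%). With scan day as a fixed factor 697 of 8484 probe sets were called (395 higher and 302 lower), and the counts of most families were lower too. Here and below, that fit takes the day 2 minus day 0 difference from day 2 replicate 1 and day 0 replicate 3 alone. They share a scan day, and the other day 0 arrays were each scanned on a day with no other array. Its counts are therefore not adjusted counts over all 6 arrays. The shares of transporters, receptors and RNA-binding proteins lie near the 23.3% of all genes.

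**Figure D1:**
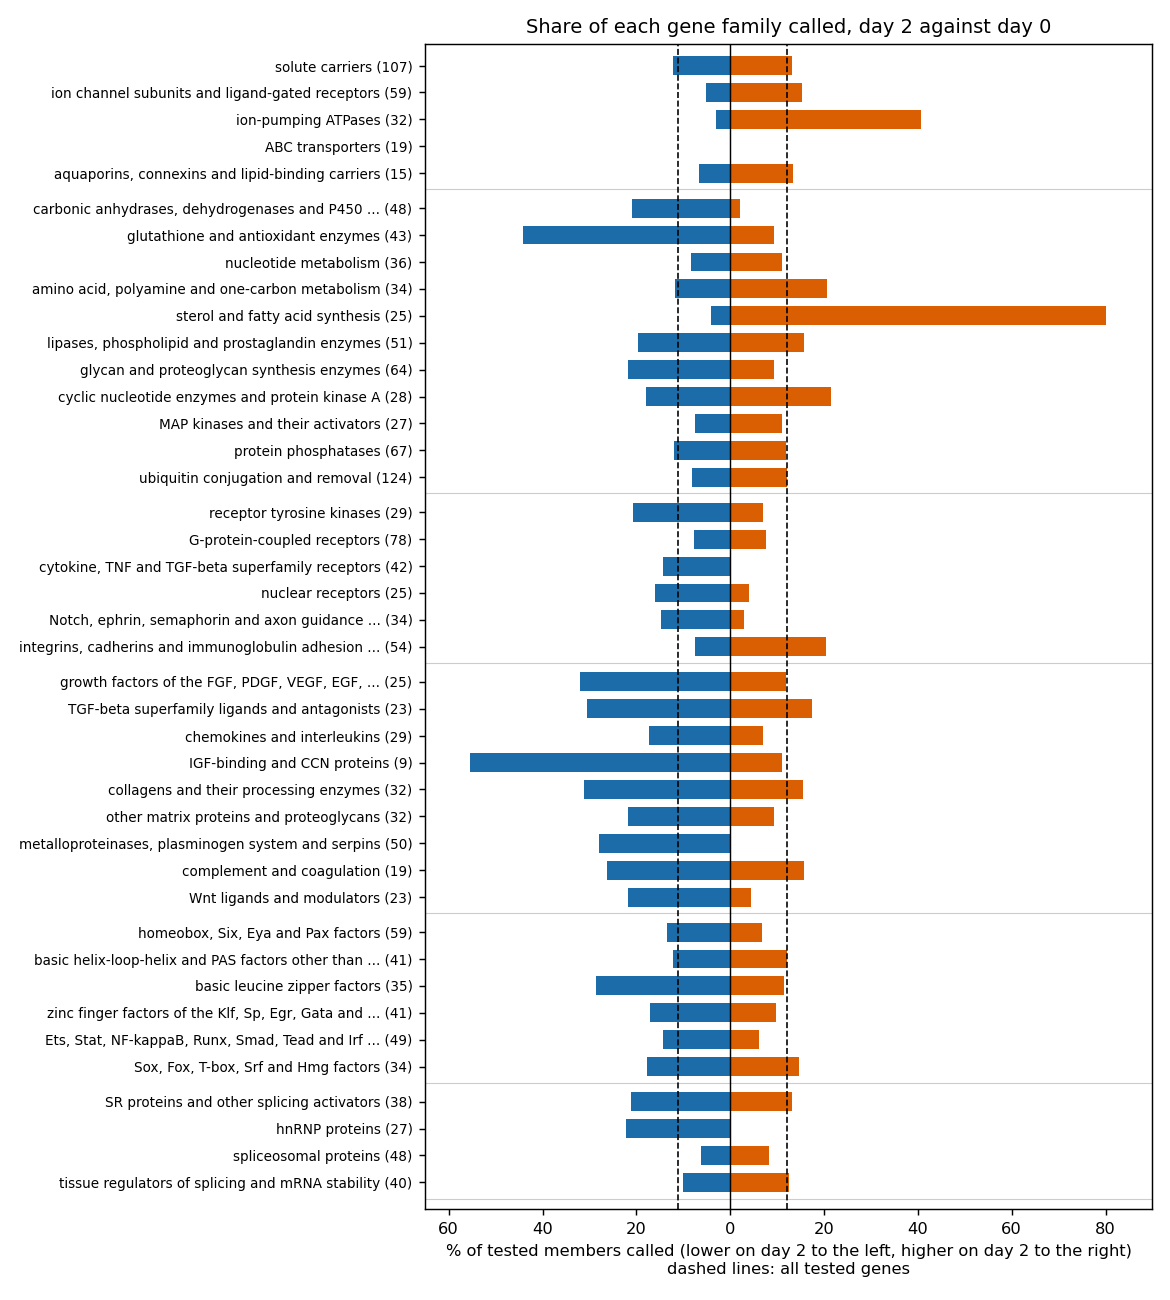
Share of tested members of each of 41 gene families called on day 2 against day 0, in percent, with members lower on day 2 to the left and members higher on day 2 to the right of the zero line and the number of tested members in brackets. The dashed lines mark all tested genes (11.2% lower, 12.1% higher); sterol and fatty acid synthesis has 20 of 25 members higher, and ABC transporters have none called of 19.

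The same length of time later in the course, day 4 to day 6, was set beside the first interval. Only 25 genes (0.398%) passed the test between day 6 and day 4, which share no array with days 2 and 0. The difference between the 2 changes was itself tested in the same fit, and 736 genes (11.7%) passed, 377 with the first change the more positive one (6%) and 359 with it the more negative one (5.71%). Among the 761 genes that rose, 364 differed from their later change, and among the 701 that fell, 335 did, each with the larger change in the first interval. The median size of the first change was 0.78 for rises and 0.73 for falls, whereas the later change in the same direction had a median of 0.08 and 0.06. These genes were chosen by their first change, so a smaller later change follows in part from that choice and supports nothing by itself.

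Among the largest rises outside the excluded groups were genes of cell shape, membranes and energy metabolism. Shroom3 (100024_at), an actin-binding regulator of cell shape, read 11.62, 11.79 and 11.50 on the day 2 arrays, against 7.41, 7.71 and 7.60 on the day 0 arrays. Its 2 groups did not overlap and it rose by 4.06 ± 0.21 (adjusted p = 7.59e-13), a 16.7-fold difference. Ppfia4, a liprin of presynaptic scaffolds, was near the floor on day 0 and was higher by at least 4.24 ± 0.22 (adjusted p = 4.9e-13), where "at least" is used when 2 or more of the 3 arrays of the lower day lay at the floor. Reep1, which shapes endoplasmic reticulum tubules, rose by 3.92 ± 0.27 (adjusted p = 7.25e-11). Pygm, the muscle glycogen phosphorylase that releases glucose units from glycogen, rose by 3.41 ± 0.23 (adjusted p = 5.63e-11), and Dio2, which converts thyroxine to the active thyroid hormone, rose by 2.96 ± 0.24 (adjusted p = 1.3e-09). Dpep1, a membrane dipeptidase, was higher by at least 3.47 ± 0.33 (adjusted p = 2.63e-08). The largest falls in the families were those of genes of lipid handling, pH, clotting and inflammation. Lpl, a lipase of circulating lipids and an adipocyte marker, fell by 4.33 ± 0.40 (adjusted p = 1.06e-08). The muscle carbonic anhydrase Car3 fell by 4.11 ± 0.28 (adjusted p = 9.45e-11). Tissue factor F3, which starts coagulation, fell by 3.73 ± 0.29 (adjusted p = 5.73e-10), and the interleukin 1 receptor antagonist Il1rn fell by 3.60 ± 0.29 (adjusted p = 1.08e-09). The groups did not overlap for any of these 4 genes. Gsta4, Cxcr4, Dlx2, Mt2 and Hmga2 also fell and are described below.

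The family of sterol and fatty acid synthesis moved in 1 direction more than any other: of 28 members on the array 25 were tested, 20 rose (80%) and 1 fell, with a median change of 1.24. Of the 15 cholesterol and isoprenoid enzymes among them, 14 rose, with a median of 1.67 and a range of 0.60 to 3.04 over all 15. All members are named here, beyond the number taken from other families, and that choice was made after their values were seen. Promoter windows of 3 genes are printed first, because the letters they share can be set beside the common rise. They run from 250 bases before to 50 bases after the transcription start in RefSeq (build GRCm38.p6), 5′ to 3′ on the plus strand, which is the coding strand of all 3 genes. Capitals mark each CCAAT on either strand (ATTGG where it lies on the opposite strand) and, in Hmgcs1 alone, TCACCCCAC, a match to the motif TCACNCCAC. Idi1 (chr13:8885356-8885655) and Nsdhl (chrX:72918271-72918570) follow Dhcr7 in the size of their change, and Hmgcs1 (chr13:119690101-119690400) was chosen for its TCACNCCAC match.
Idi1: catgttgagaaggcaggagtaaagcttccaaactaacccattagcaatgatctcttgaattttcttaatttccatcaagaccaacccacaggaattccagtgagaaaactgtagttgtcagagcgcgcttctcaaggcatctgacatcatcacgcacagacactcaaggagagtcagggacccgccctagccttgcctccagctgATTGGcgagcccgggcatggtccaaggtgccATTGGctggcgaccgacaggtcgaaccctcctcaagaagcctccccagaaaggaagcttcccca
Nsdhl: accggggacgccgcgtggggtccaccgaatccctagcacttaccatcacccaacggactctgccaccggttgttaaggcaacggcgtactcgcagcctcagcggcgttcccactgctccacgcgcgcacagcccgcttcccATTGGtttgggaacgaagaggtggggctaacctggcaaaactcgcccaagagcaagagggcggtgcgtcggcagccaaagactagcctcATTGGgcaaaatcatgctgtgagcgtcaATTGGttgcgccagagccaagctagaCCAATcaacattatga
Hmgcs1: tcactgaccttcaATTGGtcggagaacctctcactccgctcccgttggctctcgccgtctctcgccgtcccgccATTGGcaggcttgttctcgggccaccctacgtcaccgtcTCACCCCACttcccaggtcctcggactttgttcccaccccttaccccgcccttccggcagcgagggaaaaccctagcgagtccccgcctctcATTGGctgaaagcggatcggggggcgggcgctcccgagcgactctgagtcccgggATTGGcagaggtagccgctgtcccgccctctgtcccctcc

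CCAAT is the letter core of the box bound by the factor NF-Y, and TCACNCCAC is one form of the sterol element bound by SREBP. Idi1 holds 2 CCAAT matches and Nsdhl and Hmgcs1 hold 4 each, with those of Idi1 at 45 and 14 bases before the start. Searched on both strands, CCAAT was present in 18 of the 19 tested members with a window (94.7%), all but Elovl6, and in 14 of the 15 of them that rose. It was present in 37.4% of all 32851 windows and, counting a gene when any of its windows matched, in 42.7% of 5044 tested genes with a window. TCACNCCAC was present in Hmgcs1 alone of the 19, against 1.24% of all windows and 1.53% of tested genes. The TCACNCCAC match of Hmgcs1, at 137 bases before the start, overlaps none of its CCAAT matches, and a match describes letters only.

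Dhcr7 (98989_at), which reduces 7-dehydrocholesterol to cholesterol, read 10.50, 10.67 and 10.58 on day 2, against 7.19, 7.51 and 7.93 on day 0, and rose by 3.04 ± 0.19 (adjusted p = 1.92e-11). All 3 day 2 arrays lay more than 2 log2 units above the highest day 0 array. Idi1 (96269_at), which isomerises the 5-carbon isoprene unit, read 13.45, 13.31 and 13.50 on day 2, against 10.67, 11.00 and 10.92 on day 0, and rose by 2.56 ± 0.11 (adjusted p = 3.76e-14). Nsdhl (98631_g_at), which acts in removal of methyl groups at sterol carbon 4, read 13.17, 13.14 and 12.88 on day 2, against 10.96, 11.10 and 11.01 on day 0, and rose by 2.04 ± 0.13 (adjusted p = 2.55e-11). The groups did not overlap for 23 of the 25 tested members, these 3 genes among them, set against 39.9% of all genes. Along the mevalonate branch, Hmgcs1, which makes HMG-CoA, read 13.19, 12.99 and 12.95 on day 2, against 11.15, 10.91 and 11.53 on day 0, and rose by 1.85 ± 0.15 (adjusted p = 1.14e-09). In that branch Fdps, which joins isoprene units into farnesyl diphosphate, rose by 1.85 ± 0.10, Mvd by 1.67 ± 0.20 and the kinase Mvk by 0.60 ± 0.16, a call that was lost without day 2 replicate 1 (0.49, adjusted p = 0.0623). In the sterol branch proper, the squalene-forming Fdft1 rose by 1.32 ± 0.21, squalene epoxidase Sqle by 1.17 ± 0.15, lanosterol synthase Lss by 2.02 ± 0.21, the lanosterol demethylase Cyp51 by 1.47 ± 0.16, the C4 methyl oxidase Msmo1 by 2.03 ± 0.18, the isomerase Ebp by 1.24 ± 0.15 and the desaturase Sc5d by 1.63 ± 0.36. Hsd17b7 was higher by 1.10 ± 0.45 and did not pass the test (adjusted p = 0.0881).

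Fatty acid enzymes changed less. Of 9 tested, 5 rose and 1 fell, with a median of 0.60. Elovl6, which elongates 16-carbon fatty acids, rose by 1.50 ± 0.18, the stearoyl-CoA desaturases Scd2 and Scd1 by 1.12 ± 0.09 and 0.60 ± 0.15, ATP citrate lyase Acly by 0.93 ± 0.15 and fatty acid synthase Fasn by 0.79 ± 0.15. Srebf1, which encodes an SREBP factor, rose by 0.59 ± 0.11. Me1, malic enzyme, a source of NADPH, fell by 0.57 ± 0.15 (adjusted p = 0.00569), and with scan day as a fixed factor its difference of -0.39 did not pass the test (adjusted p = 0.564). Fads1 (0.24 ± 0.11), Elovl5 (-0.12 ± 0.12) and Elovl1 (-0.50 ± 0.37) did not pass it.

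**Figure D2:**
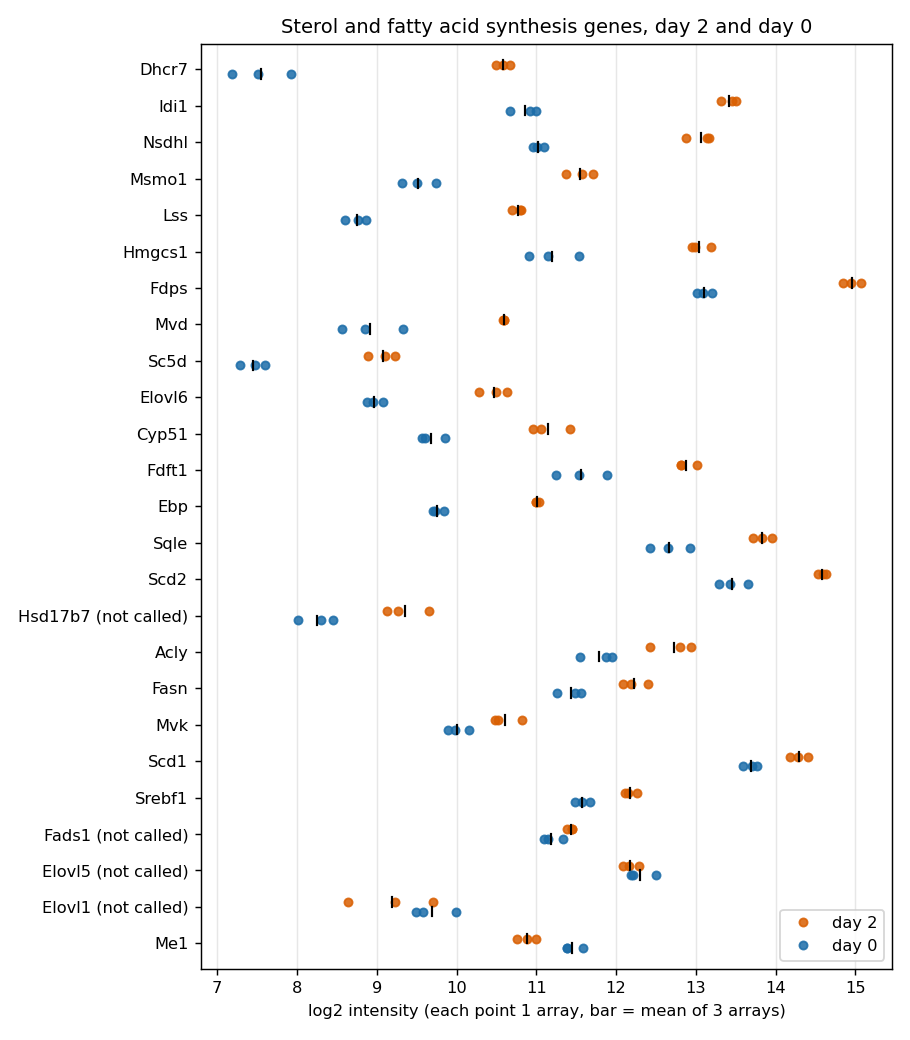
Log2 intensity of each of the 25 tested genes of sterol and fatty acid synthesis on the 3 day 2 arrays (orange) and the 3 day 0 arrays (blue), 1 point per array, with a bar at each mean. The colours separate for 23 of the 25 genes, from Dhcr7 at the top (change 3.04) to Me1 at the bottom (change -0.57).

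Day 0 was not the lowest day of the course for most of these enzymes. Of the 20 that rose, 11 had a day -2 mean below the day 0 mean, while for 19 the day -1 mean was above it. For 15 the day 2 mean was the highest of the 8 days, and for 17 the day 10 mean was still above day 0. The change differed from that of day 6 minus day 4 for 17 of the 20. All 20 were higher on day 2 within the scan day that holds 1 array of each day (median change of the family 1.30) and within the largest chip lot, with 2 arrays of each day (median 1.29). The number of rises was 19 to 20 without any 1 array. Adjusting for scan day leaves 6 residual degrees of freedom, and Sc5d (1.77), Mvk (0.84) and Srebf1 (0.66) were then not called. These changes equal those within the shared scan day, because both rest on day 2 replicate 1 and day 0 replicate 3 alone. The adjustment is therefore no separate check of the values within that scan day.

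**Figure D3:**
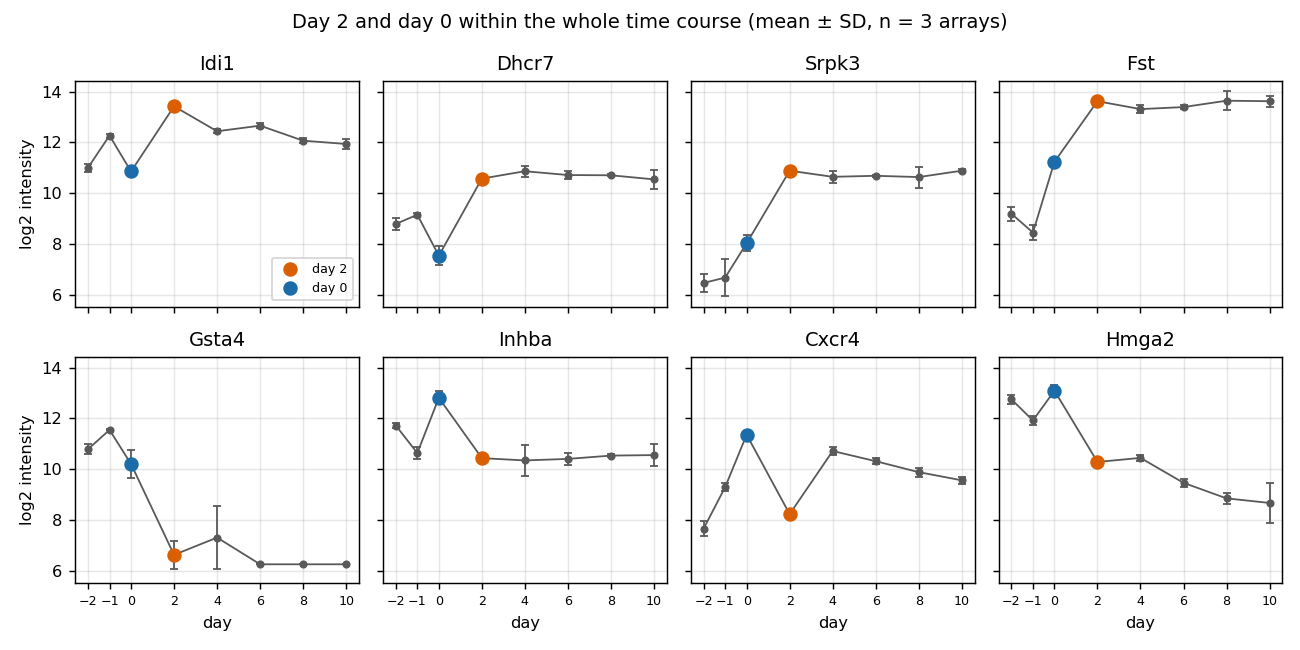
Mean log2 intensity ± SD (n = 3 arrays) on each of the 8 days for 4 genes higher on day 2 (Idi1, Dhcr7, Srpk3 and Fst, above) and 4 genes lower on day 2 (Gsta4, Inhba, Cxcr4 and Hmga2, below), with day 2 in orange and day 0 in blue. Idi1 had 13.42 on day 2, against 10.86 on day 0, and 12.27 on day -1; Cxcr4 had 8.24 on day 2, against 11.36 on day 0, and 10.72 on day 4.

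Among glutathione and antioxidant enzymes the change ran mostly downward: 19 of 43 tested members fell (44.2%) and 4 rose, with a median of -0.35. Of 12 glutathione transferases, which couple glutathione to electrophiles, 8 fell and none rose. Gsta4 (96085_at), which acts on products of lipid peroxidation, read 6.27, 7.28 and 6.39 on day 2, against 10.32, 10.69 and 9.62 on day 0. The lowest of these values is the floor, the groups did not overlap, and the gene fell by 3.57 ± 0.42 (adjusted p = 5.59e-07). Gstm1 (93543_f_at) fell by 2.07 ± 0.12 (adjusted p = 5.34e-12), although its second probe set was not called (0.07) and the probes of this class may be shared with related genes. The metallothioneins bind zinc and copper and serve as a readout of free metal and glucocorticoid. Mt2 (101561_at) read 10.92, 10.91 and 10.98 on day 2, against 13.73, 14.02 and 13.76 on day 0, with no overlap, and fell by 2.90 ± 0.11 (adjusted p = 1.36e-15). Mt1 fell by 2.62 ± 0.13 (adjusted p = 3.01e-13) in parallel, whereas Mt3 differed by 0.35 and was not called. Against this direction, glutathione synthetase Gss rose by 0.71 ± 0.14 (adjusted p = 0.000359), while its second probe set differed by -0.45 and was not called. The number of falls in the family was 13 to 18 without any 1 array and 9 with scan day as a fixed factor, and the rises numbered 2 without day 2 replicate 3 or day 0 replicate 1.

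Enzymes of nucleotide and amino acid metabolism changed as single genes rather than as families. Of 36 nucleotide enzymes 4 rose and 3 fell, and of 34 amino acid, polyamine and one-carbon enzymes 7 rose and 4 fell. Adssl1 (98435_at), the muscle form of adenylosuccinate synthase in the purine nucleotide cycle, read 12.36, 12.46 and 12.54 on day 2, against 10.19, 10.36 and 10.01 on day 0. The groups lay about 2 log2 units apart and the gene rose by 2.27 ± 0.11 (adjusted p = 1.15e-13). Adss, the form found in most tissues, fell by 0.55 ± 0.08 (adjusted p = 2.55e-05). Psat1, the aminotransferase of serine synthesis, rose by 1.32 ± 0.12 (adjusted p = 6.21e-09), and Psph, the phosphatase that completes that route, rose by 0.85 ± 0.12 (adjusted p = 6.52e-06). Both had been higher before day 0. Psat1 had means of 14.75, 14.54, 13.20 and 14.51 on days -2, -1, 0 and 2, and Psph had 12.97, 12.88, 11.62 and 12.47. Srm, which makes spermidine, fell by 0.94 ± 0.12 (adjusted p = 2.47e-06). Without day 0 replicate 2 the nucleotide enzymes had 7 rises in place of 4.

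Enzymes of phospholipids and prostaglandins changed in both directions, and those of glycans had more falls than rises. Of 51 lipases, phospholipid and prostaglandin enzymes 8 rose and 10 fell. Ptgs2, the inducible cyclooxygenase of prostaglandin synthesis, fell by 2.03 ± 0.16 (adjusted p = 1.14e-09), and Pla2g6, a calcium-independent phospholipase, rose by 2.24 ± 0.35 (adjusted p = 3.53e-05). Of 64 glycan and proteoglycan enzymes 14 fell (21.9%) and 6 rose. Chst2, a sulphotransferase for N-acetylglucosamine, fell by 1.87 ± 0.19 (adjusted p = 6.83e-08), the sialyltransferase St3gal1 fell by 1.62 ± 0.19 (adjusted p = 6.5e-07) and the hyaluronan synthase Has2 fell by 1.61 ± 0.19 (adjusted p = 6.33e-07). St6gal1, which adds sialic acid in another linkage, rose by 1.18 ± 0.22 (adjusted p = 0.000218). The falls among phospholipid enzymes numbered 6, beside 8 rises, with chip lot as a fixed factor and within the largest lot alone, and 6 without day 0 replicate 2. In addition, the rises among glycan enzymes numbered 2 without day 2 replicate 2 and 3 without day 0 replicate 3. With scan day as a fixed factor 1 rise and 4 falls were left among the phospholipid enzymes, and 1 rise and 8 falls among the glycan enzymes.

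Signalling enzymes were called about as often as all genes, apart from those of cyclic nucleotides. Of 28 cyclic nucleotide enzymes and protein kinase A genes 6 rose and 5 fell (39.3%). The 2 leading rises were Pkia, a peptide inhibitor of protein kinase A, which rose by 1.69 ± 0.15 (adjusted p = 1e-08), and Pde4dip, an anchor of phosphodiesterase 4, which rose by 1.63 ± 0.13 (adjusted p = 1.45e-09). Of 27 MAP kinases and activators 3 rose and 2 fell (18.5%), with Mapk12, the muscle-enriched p38 gamma, which rose by 0.97 ± 0.10 (adjusted p = 1.15e-07), and Map2k3, an activator of p38, which fell by 1.22 ± 0.10 (adjusted p = 1.48e-09). Of 67 protein phosphatases 8 rose and 8 fell (23.9%). Ptprf, a receptor-type tyrosine phosphatase, rose by 2.22 ± 0.41 (adjusted p = 0.000226), with 1 day 0 array at the floor, and Dusp1, which inactivates MAP kinases, fell by 0.82 ± 0.12 (adjusted p = 1.14e-05). Socs2, a feedback inhibitor of cytokine and growth hormone signalling, fell by 1.35 ± 0.16 (adjusted p = 6.82e-07), and of 124 genes of ubiquitin conjugation and removal 15 rose and 10 fell (20.2%). The falls among cyclic nucleotide enzymes numbered 3 without day 2 replicate 1, day 2 replicate 3 or day 0 replicate 1, and 2 without day 0 replicate 3. Phosphatase rises numbered 4 without day 2 replicate 2 or day 0 replicate 3 and 5 without day 2 replicate 3, phosphatase falls 5 without day 2 replicate 1 or day 0 replicate 2, ubiquitin rises 9 without day 2 replicate 1, ubiquitin falls 6 without day 2 replicate 2, and the MAP kinase falls 1 without day 0 replicate 2.

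Transporters changed most among the ion-pumping ATPases, where 13 of 32 tested members rose (40.6%) and 1 fell, with a median of 0.20. The calcium pumps of the sarcoplasmic reticulum, which return calcium to the store after contraction, both rose. Atp2a1, the fast muscle form, rose by 3.09 ± 0.22 (adjusted p = 1.74e-10), and Atp2a2, the form of slow and cardiac muscle, read 12.65, 12.91 and 12.98 on day 2, against 10.84, 10.92 and 10.98 on day 0. Its groups did not overlap and it rose by 1.93 ± 0.11 (adjusted p = 5.78e-12). Of 15 subunits of the vacuolar proton pump, which acidifies lysosomes and endosomes, 7 rose and 1 fell, with changes between -0.41 and 0.86. Atp1b1, the beta subunit of the sodium pump, rose by 1.06 ± 0.32 (adjusted p = 0.0176); its call was lost without day 2 replicate 1 (0.94, adjusted p = 0.0789) and without day 0 replicate 2 (0.84, adjusted p = 0.101). The number of rises in the whole family was 9 to 13 without any 1 array and 8 with scan day as a fixed factor.

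Solute carriers moved both ways: of 107 tested, 14 rose and 13 fell (25.2%), with a median of -0.01. Slc12a2 (99500_at), the cotransporter that brings sodium, potassium and chloride into the cell, read 12.67, 12.83 and 12.77 on day 2, against 10.36, 10.66 and 10.34 on day 0. The 2 groups did not overlap and it rose by 2.30 ± 0.17 (adjusted p = 1.99e-10). Slc4a3, a chloride and bicarbonate exchanger, rose by 1.72 ± 0.17 (adjusted p = 2.51e-08). Slc27a1 (93486_at), a fatty acid transport protein with acyl-CoA synthetase activity, read 8.80, 8.58 and 9.18 on day 2, against 11.30, 11.25 and 10.72 on day 0. All day 2 arrays were below all day 0 arrays, and the gene fell by 2.24 ± 0.17 (adjusted p = 6.97e-10). Slc20a1, a sodium-coupled phosphate carrier, fell by 0.92 ± 0.12 (adjusted p = 1.9e-06). The glucose carrier Slc2a1 fell by 0.67 ± 0.21 (adjusted p = 0.02); its adjusted p was 0.0593 without day 2 replicate 1, 0.0789 without day 2 replicate 3 and 0.0922 without day 0 replicate 2, with changes of -0.65, -0.61 and -0.58. With scan day as a fixed factor 10 rises and 3 falls were left among the solute carriers.

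Of 59 ion channel subunits and ligand-gated receptors 9 rose and 3 fell (20.3%). Of 7 acetylcholine receptor subunits, which form the channel of the muscle endplate and its neuronal relatives, 4 rose and none fell, with a median of 0.74. Cacna1s rose by 3.72 ± 0.30 (adjusted p = 1.26e-09) and Ryr1 by 3.31 ± 0.20 (adjusted p = 1.04e-11). Kcnj12, an inwardly rectifying potassium channel that holds the resting potential, rose by 2.25 ± 0.31 (adjusted p = 5.59e-06). Gja5, a connexin of gap junctions, rose by 1.40 ± 0.19 (adjusted p = 6.09e-06). None of 19 tested ABC transporters, which pump lipids and drugs, passed the test. Channel falls numbered 1 with scan day as a fixed factor.

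Receptors had a lower share called than all genes, and in several families the falls outnumbered the rises. Cxcr4 (102794_at), the receptor for the chemokine Cxcl12, read 8.16, 8.49 and 8.08 on day 2, against 11.19, 11.45 and 11.45 on day 0. The groups lay far apart, and it fell by 3.12 ± 0.18 (adjusted p = 3.2e-12), 8.7-fold. Ackr3, which binds the same chemokine without classical G-protein signalling, fell by 2.48 ± 0.20 (adjusted p = 1.82e-09). Ptger4, a receptor for prostaglandin E2, fell by 2.11 ± 0.31 (adjusted p = 1.38e-05). Over all 78 tested G-protein-coupled receptors 6 rose and 6 fell (15.4%), which is below the share of all genes. Of 42 cytokine, TNF and TGF-beta superfamily receptors none rose and 6 fell (14.3%), among them Acvr1, a type I receptor for bone morphogenetic proteins and activins, which fell by 1.81 ± 0.28 (adjusted p = 2.99e-05), and the TNF receptor Tnfrsf1b, which fell by 1.66 ± 0.16 (adjusted p = 4.51e-08). With scan day as a fixed factor 1 rise and 4 falls were left among the G-protein-coupled receptors and 2 falls among the cytokine group.

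Of 29 receptor tyrosine kinases 2 rose and 6 fell (27.6%). The larger rise was that of Erbb3, by 3.41 ± 0.13 (adjusted p = 1.36e-15). Ephb3, a receptor for membrane-bound ephrins, rose by 1.74 ± 0.38 (adjusted p = 0.00154), and its kinase-inactive relative Ephb6 fell by 1.13 ± 0.16 (adjusted p = 1.04e-05), with a second probe set at -0.45 that was not called. Fgfr1, a fibroblast growth factor receptor of myoblasts, fell by 1.11 ± 0.14 (adjusted p = 1.36e-06). Fgfr4 (-0.64 ± 0.34, adjusted p = 0.223), Igf1r (0.26 ± 0.13, adjusted p = 0.178) and Met (-0.25 ± 0.49, adjusted p = 0.805) did not pass the test. Of 25 nuclear receptors 1 rose and 4 fell, with the thyroid hormone receptor Thra, which fell by 0.79 ± 0.12 (adjusted p = 1.28e-05) by 1 probe set and differed by 0.70 without a call by the other, and Nr4a1 at a difference of 0.00 (adjusted p = 1). Of 34 Notch, ephrin, semaphorin and axon guidance genes 1 rose and 5 fell, and the rise was Plxnb2, a semaphorin receptor, which rose by 1.41 ± 0.25 (adjusted p = 0.000159). Its day 0 arrays read 11.83, 10.35 and 12.02, and leaving out 1 array gave changes down to 0.88. The second probe set of Plxnb2 was also called higher, by 0.52. The nuclear receptor falls numbered 2 without day 2 replicate 1, day 0 replicate 1 or day 0 replicate 3, and the guidance group had 2 rises without day 2 replicate 2 or day 0 replicate 1. With scan day as a fixed factor 3 falls were left among the kinases and none in the guidance group.

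Among adhesion proteins the rises outnumbered the falls: of 54 integrins, cadherins and immunoglobulin-type proteins 11 rose (20.4%) and 4 fell. Cdh13, a cadherin anchored in the membrane by a lipid, rose by 2.94 ± 0.36 (adjusted p = 1e-06). Cdh2, the N-cadherin of contacts between myoblasts, read 12.09, 12.33 and 12.25 on day 2, against 10.89, 10.50 and 10.53 on day 0. There was no overlap and it rose by 1.59 ± 0.15 (adjusted p = 1.76e-08). Itga5, the fibronectin receptor subunit, read 10.07, 10.45 and 10.58 on day 2, against 12.04, 12.37 and 12.10 on day 0, also without overlap, and fell by 1.80 ± 0.20 (adjusted p = 3.36e-07). The laminin receptor subunit Itga7 rose by 0.65 ± 0.12 (adjusted p = 0.000274), and Vcam1, a ligand of integrin alpha 4, fell by 1.27 ± 0.13 (adjusted p = 1.27e-07). The muscle cadherin Cdh15 (0.07 ± 0.11, adjusted p = 0.736) and Ncam1 (0.13 ± 0.13, adjusted p = 0.598) did not pass the test. Rises numbered 5 with scan day as a fixed factor.

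Among secreted signalling proteins an activin subunit and its antagonist moved in opposite directions. Fst (98817_at), the extracellular antagonist that binds activins and myostatin, read 13.70, 13.49 and 13.68 on day 2, against 11.08, 11.36 and 11.29 on day 0. The groups were apart by more than 2 log2 units, and Fst rose by 2.38 ± 0.17 (adjusted p = 1.52e-10). Inhba (100277_at), which encodes the activin A subunit, read 10.49, 10.46 and 10.38 on day 2, against 12.54, 12.89 and 13.02 on day 0, with no overlap, and fell by 2.37 ± 0.23 (adjusted p = 2.65e-08). Tgfb1, the founding ligand of the family, fell by 1.08 ± 0.19 (adjusted p = 0.000191), and Bmp4 (-0.14 ± 0.22, adjusted p = 0.747) did not pass the test. In all, 4 of 23 TGF-beta superfamily ligands and antagonists rose and 7 fell (47.8%), and the falls numbered 4 without day 2 replicate 3 or day 0 replicate 2 and 3 with scan day as a fixed factor. Of 25 growth factors of the FGF, PDGF, VEGF, EGF, neurotrophin and HGF families 3 rose and 8 fell (44.0%), with 5 falls without day 2 replicate 3 and 2 with scan day as a fixed factor. Of 23 Wnt ligands and modulators 1 rose and 5 fell, and falls numbered 3 without day 2 replicate 1 or day 0 replicate 1. The falls include Lef1, a transcription factor and no secreted protein, which fell by 1.22 ± 0.12. The rise was Wnt10a, which rose by 2.17 ± 0.13 (adjusted p = 3.79e-12).

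IGF-binding and CCN proteins were called most often among the secreted families, with 5 of 9 that fell and 1 that rose (66.7%), and the falls also numbered 5 without any 1 array and with scan day as a fixed factor. Igfbp3 (95083_at), which carries IGFs outside the cell, read 9.22, 8.66 and 8.98 on day 2, against 6.55, 6.27 and 6.72 on day 0. Its day 0 arrays lay at or near the floor, and it rose by 2.44 ± 0.30 (adjusted p = 1.29e-06). Igfbp2 fell by 1.48 ± 0.13 (adjusted p = 9.85e-09). Ccn2 (93294_at), a matricellular protein induced by TGF-beta and by stretch, read 13.49, 13.51 and 13.63 on day 2, against 14.69, 14.66 and 14.80 on day 0, without overlap, and fell by 1.17 ± 0.09 (adjusted p = 7.41e-10). Its relative Ccn1 fell by 1.26 ± 0.18 (adjusted p = 9.29e-06).

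Matrix genes fell more often than they rose. Of 32 collagens and processing enzymes 10 fell (31.2%) and 5 rose, or 5 and 3 with scan day as a fixed factor. Col3a1, a fibrillar collagen, read 12.92, 12.84 and 12.79 on day 2, against 14.26, 14.18 and 14.31 on day 0. The groups did not overlap and it fell by 1.40 ± 0.11 (adjusted p = 8.07e-10). Col1a1, which forms the other main fibril, rose by 0.99 ± 0.17 (adjusted p = 0.000138). Of 6 type IV and VI collagen chains, which form the sheet of the basement membrane and beaded filaments beside it, 4 fell and none rose, with Col6a1 falling by 1.39 ± 0.17 (adjusted p = 9.77e-07) and Col4a1 by 1.11 ± 0.09 (adjusted p = 6.71e-10). Of 32 other matrix proteins and proteoglycans 3 rose and 7 fell. Postn (92593_at), a matricellular protein of connective tissue, read 11.03, 11.02 and 10.79 on day 2, against 8.57, 8.53 and 8.45 on day 0, with day 2 above day 0 throughout, and rose by 2.43 ± 0.25 (adjusted p = 9.2e-08). Mgp, an inhibitor of calcification, fell by 1.63 ± 0.16 (adjusted p = 4.4e-08), and the leucine-rich proteoglycan Ogn fell by 2.03 ± 0.13 (adjusted p = 3.21e-11).

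Among metalloproteinases, plasminogen system genes and serpins 14 of 50 fell (28.0%) and none rose. Timp3 (160519_at), a matrix-bound inhibitor of metalloproteinases, read 12.36, 11.96 and 12.44 on day 2, against 14.14, 14.08 and 14.28 on day 0. It was lower on every day 2 array and fell by 1.91 ± 0.17 (adjusted p = 8.52e-09). Adam8, a membrane metalloproteinase, fell by 2.55 ± 0.35 (adjusted p = 6.16e-06), and with scan day as a fixed factor its adjusted p was 0.0827. Of 29 chemokines and interleukins 2 rose and 5 fell. The rises, Il1b and Tnfsf9, numbered 1 without day 2 replicate 2, day 2 replicate 3 or any 1 day 0 array, and with scan day as a fixed factor 1 rise and 2 falls were left. The falls among metalloproteinases, plasminogen system genes and serpins numbered 11 to 13 without any 1 array and 4 with scan day as a fixed factor.

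**Figure D4:**
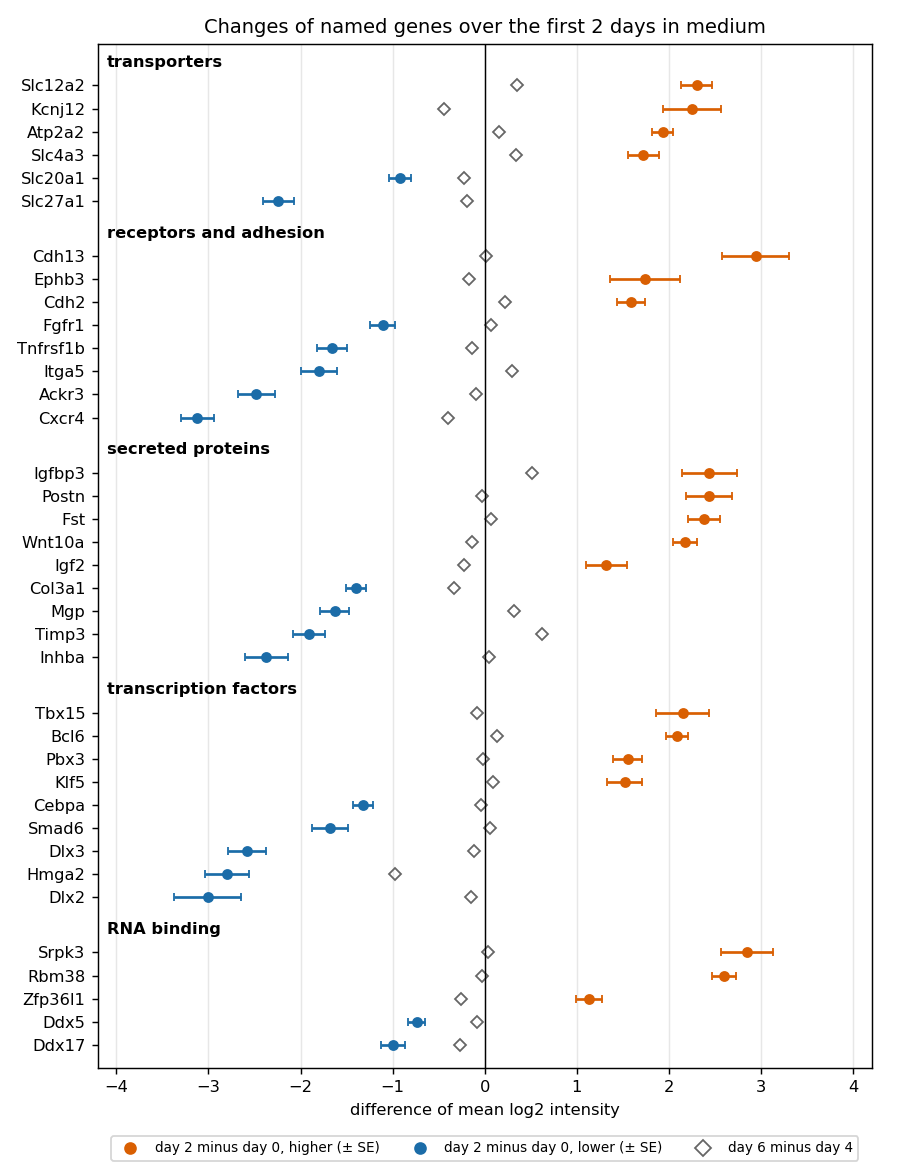
Day 2 minus day 0 difference of mean log2 intensity ± SE for named genes grouped by role (orange, higher on day 2; blue, lower on day 2), with each gene's day 6 minus day 4 difference as an open diamond. The diamonds lie between -0.98 (Hmga2) and 0.62 (Timp3), while the filled points run from Cxcr4 (-3.12) to Cdh13 (2.94).

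Transcription factors had more falls than rises, and the largest were in homeobox and chromatin-binding genes. Dlx2 (92332_at) read 7.98, 8.46 and 7.94 on day 2, against 11.08, 11.17 and 11.16 on day 0, and fell by 3.01 ± 0.36 (adjusted p = 8.42e-07). Dlx3 (99328_at) read 9.33, 9.64 and 9.82 on day 2, against 12.07, 12.32 and 12.13 on day 0, and fell by 2.58 ± 0.21 (adjusted p = 1.38e-09). Both are Distal-less homeobox factors known from limb, face and bone, and their groups did not overlap; 3 of 4 tested Dlx genes fell. By comparison, of 21 tested Hox genes 1 rose and none fell. Pbx3, a homeobox partner of Hox and myogenic factors, rose by 1.55 ± 0.16 (adjusted p = 6.05e-08). Hmga2 (99058_at), an architectural chromatin protein of undifferentiated cells, read 10.21, 10.44 and 10.21 on day 2, against 13.05, 12.89 and 13.34 on day 0, with no overlap, and fell by 2.80 ± 0.24 (adjusted p = 4.23e-09). Of 59 homeobox and paired-box genes and their Eya cofactors 4 rose and 8 fell (20.3%), with 2 rises without day 2 replicate 3, and 1 rise and 3 falls with scan day as a fixed factor.

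Of 35 basic leucine zipper factors 10 fell (28.6%) and 4 rose. Of 7 AP-1 genes, which respond within minutes to growth signals, 4 fell and none rose, with a median of -1.01. Jun fell by 1.01 ± 0.21 (adjusted p = 0.00075). Fos fell by 1.08 ± 0.34 (adjusted p = 0.0254); its change and adjusted p were -1.01 and 0.0866 without day 2 replicate 2, -1.02 and 0.0776 without day 2 replicate 3, -0.97 and 0.0935 without day 0 replicate 1, and -1.12 and 0.0519 without day 0 replicate 3. Cebpa, a factor of adipocyte and myeloid programmes and one of the adipocyte markers above, fell by 1.32 ± 0.11 (adjusted p = 2.02e-09), and Cebpb fell by 0.85 ± 0.17 (adjusted p = 0.000563). The rises in this family numbered 2 without day 2 replicate 2 or day 0 replicate 3, and with scan day as a fixed factor 2 rises and 6 falls were left.

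In the zinc finger, helix-loop-helix and other families single genes stood out. Bcl6 (103015_at), a transcriptional repressor, read 11.01, 11.11 and 11.13 on day 2, against 9.11, 8.99 and 8.89 on day 0. The 2 groups did not overlap and it rose by 2.09 ± 0.12 (adjusted p = 3.47e-12). Klf5, a Krüppel-like activator, rose by 1.52 ± 0.19 (adjusted p = 1.05e-06), and Tbx15, a T-box factor of skeleton and muscle, rose by 2.15 ± 0.29 (adjusted p = 3.93e-06). Sox11 rose by 1.18 ± 0.11 (adjusted p = 1.71e-08) and the forkhead factor Foxc2 fell by 1.83 ± 0.23 (adjusted p = 1.22e-06). Both inhibitory Smads, which dampen TGF-beta and bone morphogenetic protein signalling, fell, Smad6 by 1.68 ± 0.20 (adjusted p = 5.83e-07) and Smad7 by 0.95, which was not called with scan day as a fixed factor (-0.49, adjusted p = 0.528). Max, the partner of Myc proteins, fell by 1.00 ± 0.12 (adjusted p = 9.07e-07), and Mycl fell by 1.25 ± 0.20 (adjusted p = 3.53e-05). Klf4 (0.22 ± 0.13, adjusted p = 0.281) and Tcf12, a partner of myogenic factors (-0.30 ± 0.20, adjusted p = 0.347), did not pass the test.

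Splicing and RNA-binding genes changed by small amounts, with 5 rises and 1 fall of 2-fold or more among 148 tested. The largest was Srpk3 (92436_at), a muscle-enriched kinase of SR proteins, which read 10.91, 11.01 and 10.75 on day 2, against 7.94, 8.39 and 7.80 on day 0. The groups did not overlap and it rose by 2.85 ± 0.28 (adjusted p = 4.48e-08). Rbm38 (98624_at), an RNA-binding protein that acts on the stability and splicing of messages, read 12.58, 12.73 and 12.67 on day 2, against 9.85, 10.31 and 10.03 on day 0, also without overlap, and rose by 2.60 ± 0.13 (adjusted p = 3.76e-13). Paralogs that destabilise AU-rich messages moved in opposite directions: Zfp36l1 rose by 1.13 ± 0.14 (adjusted p = 1.33e-06) and Zfp36l2 fell by 0.93 ± 0.15 (adjusted p = 4.72e-05), although 2 further probe sets of Zfp36l2, at 0.18 and -0.25, were not called. The substrates of Srpk3-type kinases, the SR proteins encoded by Srsf genes, showed no rise: of 9 tested, 3 fell, with a median of -0.34. Srsf5 fell by 0.65 ± 0.16 (adjusted p = 0.0045), and Srsf1 (0.34 ± 0.25, adjusted p = 0.394) did not pass the test.

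Of 27 hnRNP-type proteins, which coat nascent transcripts, 6 fell (22.2%) and none rose, with a median of -0.14, and with scan day as a fixed factor 2 falls were left. Ewsr1 fell by 0.71 ± 0.11 (adjusted p = 5.11e-05). The paralogous RNA helicases Ddx17 and Ddx5, which have been described as coactivators of myogenic factors, fell by 1.00 ± 0.13 (adjusted p = 2.2e-06) and 0.74 ± 0.09 (adjusted p = 1.65e-06). Of 48 spliceosomal proteins 4 rose and 3 fell (14.6%). Among the tissue regulators of splicing, Mbnl1 (-0.11 ± 0.18, adjusted p = 0.771), Celf1 (0.35 ± 0.20, adjusted p = 0.246) and Celf2 (-0.41 ± 0.19, adjusted p = 0.138) did not pass the test. Rbfox2, a splicing factor of muscle and brain, rose by 0.57 ± 0.19 (adjusted p = 0.0339) by 1 probe set, with the other at -0.30 and not called; without day 2 replicate 2, day 2 replicate 3, day 0 replicate 1 or day 0 replicate 2 its changes of 0.44, 0.61, 0.54 and 0.53 had adjusted p-values of 0.18, 0.0581, 0.0946 and 0.0971. The wider family of SR proteins and other splicing activators had 8 falls among 38 tested genes. These falls numbered 4 without day 2 replicate 1 or 2, 5 without day 0 replicate 1 and 3 without day 0 replicate 2. Rises in that family, 5, numbered 2 without day 2 replicate 1, day 0 replicate 1 or day 0 replicate 3, and spliceosomal rises 2 without day 2 replicate 1, day 2 replicate 2 or day 0 replicate 1.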

How the data were processed

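Total RNA of C2C12 cells was measured on 24 Affymetrix MG_U74Av2 arrays, 3 on each of 8 days, and groups and replicate numbers were taken from the labels. The deposited values are linear intensities, 1 per probe set, whose trimmed mean (2% at each end) is 1499.69 to 1499.73 on every array, so the authors scaled each array to a common target, as read from the values. The summary method and its settings are not given in the sources used here. Chip type, chip lot (5 lots) and scan day (11 days) were read per the file headers of the deposited array description files, other columns of which were not used.

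Intensities below the 20th percentile (77) were raised to it and log2 was taken. Probe sets whose mean exceeded the 40th percentile (277.7) on at least 1 day were tested, 8484 of 12422. Differences were fitted with limma 3.58.1 in R 4.3.3 (lmFit, contrasts.fit, eBayes with a trend) over all 24 arrays with day as the only factor, two-sided, with Benjamini-Hochberg adjustment over all tested probe sets and a threshold of 0.05. The second contrast was the day 2 minus day 0 change less the day 6 minus day 4 change. On the 6 arrays 18.2 to 24.2% of non-control probe sets were at the floor, and the number of arrays limits the precision.

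Probe sets were named through GEO's platform annotation, with symbols updated by gene ID: 10833 name 1 gene, 396 several and 1193 none. The probe set with the highest mean stands for its gene. Families are lists of symbol patterns, and members and lists were chosen with earlier results of these data known. Slc9a3r1, Unc50, Txnl4a and F11r, which matched a pattern by letters only, were taken out of that family after values had been seen. Genes named are the 12 largest rises and falls not yet described, up to 3 in each direction per family, and a list of well-known genes. The remaining sterol genes, Mt3 and Smad7 were named after their values were seen. Insr and Slc2a4 were not tested because they were too dim, and some listed genes are not reported here.

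The fit was tested on simulated data for day 2 against day 0 with 8484 probe sets: of 50 changed at each size, 28% were recovered at 0.5, 60% at 1, 92% at 2 and 98% at 3 log2 units, and 4.8% of calls were false. The simulated noise was independent between arrays, without effects of chip lot or scan day. Far fewer probe sets were changed than were called in the data, so these rates need not hold there. Alternatives were the normalization, the floor, the filter, the arrays used, the variance prior, chip lot and scan day, a block on replicate number, leaving out each array and, added after seeing the data, the largest chip lot alone.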

Additional observations from a re-analysis of the deposited data

Results flagged for a closer look

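Ccn2, the matricellular protein described above, changed in opposite directions in the 2 intervals compared. It fell by 1.17 on day 2 against day 0 and was higher by 0.42 on day 6 than on day 4 (adjusted p = 0.0355, limma). The difference between the 2 changes was -1.60 (adjusted p = 4.06e-09), and its day 2 and day 0 arrays did not overlap. Ccn2 had means of 13.58, 11.59, 14.72, 13.54, 12.29 and 12.71 on days -2, -1, 0, 2, 4 and 6. Its fall thus started from its highest day, and day 2 still lay above day -1.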

How the results depend on the processing

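The count of called probe sets, 1830 (951 higher, 879 lower), was 697 with scan day as a fixed factor (395 higher and 302 lower), a fit with 11 scan days that leaves 6 residual degrees of freedom. The count of changes that differ from the later interval, 945 (480 larger and 465 smaller), then was 389 (227 larger and 162 smaller). As described above, the day 2 minus day 0 difference of that fit comes from day 2 replicate 1 and day 0 replicate 3 alone. Leaving out each of the 6 arrays in turn gave 1476 to 1593 calls (778 to 861 higher and 698 to 734 lower), and 795 to 856 differences (400 to 457 larger and 395 to 408 smaller). The other alternatives gave 1488 calls within the largest chip lot alone (782 higher and 706 lower), 1645 with chip lot as a fixed factor, 1736 with no filter on dim probe sets, and between 1782 and 1904 under quantile normalization, other floors, a pseudocount, the 6 arrays alone, a prior without a trend, scan day as a random block and the replicate block. No named gene that was called changed direction under any alternative, and genes that were not called were not counted. Of 230 named genes that were called, 100 lost the call with scan day as a fixed factor, 23 to 28 without any 1 array, 34 within the largest chip lot alone and 25 with chip lot as a fixed factor. Within the scan day shared by 1 array of each day, 98.3% of 1244 probe sets called without those 2 arrays kept their direction, with a slope of 0.894. Within the largest lot 98% of 640 probe sets, called without its day 2 and day 0 arrays, kept theirs, with a slope of 0.87. Arrays with the same replicate number did not deviate together (r = 0.064, -0.059 and -0.087), which cannot exclude that the numbers pair the samples. The labels do not say, and the main fit did not pair them. With the replicate block 1872 probe sets were called (975 higher and 897 lower) and 988 changes differed from the later interval. The floor limits fold changes of dim genes, which are then lower bounds.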

Other observations

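Some genes that were low on day 2 stood higher again on day 4. Of the 198 genes that were at least 2-fold lower on day 2 than on day 0, 54 had a day 4 mean at least 1 log2 unit above their day 2 mean, and the median difference, day 4 minus day 2, was 0.40. Of the 271 genes that were at least 2-fold higher on day 2, 20 had a day 4 mean at least 1 log2 unit below it, with a median of -0.08. Within the families the counts were 28 of 109 and 3 of 85. The chemokine receptor Cxcr4 had means of 7.67, 9.30, 11.36, 8.24 and 10.72 on days -2, -1, 0, 2 and 4. The metallothionein Mt2 had means of 13.84, 10.94 and 13.14 on days 0, 2 and 4, the fatty acid transporter Slc27a1 had 11.09, 8.85 and 11.03, and the calcification inhibitor Mgp had 14.07, 12.44 and 14.14. Genes that are extreme on day 2 share that day's 3 arrays in both differences, so these counts are a description with no test.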
